A study of Homo sapiens with 4 samples.

Results

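Small nuclear RNA genes are taken here as all genes whose symbol begins RNU or RNVU, and 1900 of the 63677 genes in the count files met that rule. Total RNA was sequenced from H929, a line of human multiple myeloma (malignant plasma) cells, in 4 libraries: 2 from cells transduced with a short hairpin RNA (shRNA) against ILF2, a double-stranded RNA-binding protein, and 2 from cells transduced with a non-silencing shRNA. All 4 libraries carry an shRNA, and no untransduced cells were used. The submitters call the 2 replicates of a condition independent, but whether each is a separate transduction, and whether both ILF2 libraries carry the same hairpin, is not stated, so the p-values here rest on the spread among these libraries alone. Libraries held 63459322 and 71359863 fragments counted to genes with ILF2 shRNA, against 72977082 and 71389341 with non-silencing shRNA. Levels are given as CPM, counts per 1000000 fragments of the normalised library. ILF2 itself had 107 and 114 CPM with ILF2 shRNA, against 717 and 733 CPM with non-silencing shRNA, which is a log2 fold change of -2.71 with an SE of 0.07 (adjusted p = 9.2e-39 by edgeR).

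Small nuclear RNAs are short non-coding RNAs that form the core of the spliceosome, which removes introns from pre-mRNA. U1 pairs with the 5′ splice site and U2 with the branch point, U4 brings U6 in an inactive paired form together with U5, and U6 pairs with U2 in the active centre; U11, U12, U4atac and U6atac take these parts for a minor class of introns, with U5 shared. U7 works outside splicing, in cutting the 3′ end of replication-dependent histone mRNAs. Most are transcribed by RNA polymerase II, and U6 and U6atac by RNA polymerase III. Their genes exist in many near-identical copies, and a symbol ending in P marks a copy named as a pseudogene, as 1857 of the 1900 symbols do, without showing that it is silent.

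The RNAs on which the results turn are written here as DNA, 5′ to 3′, from the GRCh37 genome at the coordinates of the count files. The first set shows 1 standard U1 copy, RNU1-1 (chr1:16840617-16840780, minus strand), beside U1 variants that were higher with ILF2 shRNA: RNVU1-15 (chr1:148604908-148605072, minus strand), RNVU1-13 (chr1:147994146-147994313, plus strand), RNVU1-14 (chr1:148241465-148241628, plus strand) and RNVU1-20 (chr1:149605917-149606079, plus strand). Capitals mark bases 3 to 11 counted from the RNA's 5′ end, the stretch of U1 that pairs with the 5′ splice site.
RNU1-1: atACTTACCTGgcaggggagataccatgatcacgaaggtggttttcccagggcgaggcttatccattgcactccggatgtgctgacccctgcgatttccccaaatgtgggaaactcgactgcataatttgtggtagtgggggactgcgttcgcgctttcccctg
RNVU1-15: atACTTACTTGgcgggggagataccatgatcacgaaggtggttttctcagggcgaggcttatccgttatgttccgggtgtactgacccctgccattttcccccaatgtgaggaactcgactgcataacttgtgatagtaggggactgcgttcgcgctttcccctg
RNVU1-13: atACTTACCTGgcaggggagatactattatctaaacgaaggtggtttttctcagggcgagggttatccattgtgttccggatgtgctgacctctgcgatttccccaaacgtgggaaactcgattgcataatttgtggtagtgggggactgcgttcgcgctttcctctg
RNVU1-14: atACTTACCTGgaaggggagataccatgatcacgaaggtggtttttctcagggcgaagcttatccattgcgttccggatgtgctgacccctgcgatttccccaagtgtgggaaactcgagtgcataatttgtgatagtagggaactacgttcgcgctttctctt
RNVU1-20: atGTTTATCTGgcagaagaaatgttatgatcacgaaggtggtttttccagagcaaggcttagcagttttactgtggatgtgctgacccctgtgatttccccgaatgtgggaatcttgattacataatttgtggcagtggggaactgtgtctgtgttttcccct

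In that stretch RNVU1-13 and RNVU1-14 had the same letters as RNU1-1. RNVU1-15 differed from RNU1-1 by C9T, and RNVU1-20 by A3G, C4T and C8T, with positions counted from the 5′ end of the RNA. The U1 copy RNU1-59P differed there by C8T, C9G and G11A.

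The second set is the pair of U4 genes, RNU4-2 (chr12:120729566-120729706, minus strand) and RNU4-1 (chr12:120730900-120731040, minus strand), shown because they hold most of the fragments counted to any small nuclear RNA gene. Capitals mark the bases at which they differ, T37C, A88G, A99C and T113C from RNU4-2 to RNU4-1, which leaves an identity of 97.2%.
RNU4-2: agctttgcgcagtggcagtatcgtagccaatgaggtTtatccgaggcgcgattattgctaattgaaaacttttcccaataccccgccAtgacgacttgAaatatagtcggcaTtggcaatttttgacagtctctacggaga
RNU4-1: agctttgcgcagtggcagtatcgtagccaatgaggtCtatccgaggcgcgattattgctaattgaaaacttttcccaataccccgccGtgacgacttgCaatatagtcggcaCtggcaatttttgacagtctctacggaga

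The last set is the minor-spliceosome RNA RNU11 (chr1:28975112-28975245, plus strand), with its Sm site, where the Sm protein ring binds, in capitals, shown because it is the minor-spliceosome member that was higher with ILF2 shRNA.
RNU11: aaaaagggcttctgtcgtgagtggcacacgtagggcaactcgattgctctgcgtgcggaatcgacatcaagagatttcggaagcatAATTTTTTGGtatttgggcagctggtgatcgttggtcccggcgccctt

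Where small nuclear RNA genes differed between the groups, they were higher with ILF2 shRNA, and the genes concerned came from U1 and its variants, U5, U4, U2, U11 and, in 1 case, U6. Of the 1900 members, 1418 had no fragment in any library, 482 had at least 1, and 72 passed the filter on low counts and were tested. The filter asks for enough fragments in any 2 libraries, so a gene near it can pass through the libraries of 1 group alone, and counts over the tested members are a description. At an edgeR adjusted p under 0.05 over all tested genes, 15 of the 72 (20.8%) were higher and 0 were lower, where 10.2% of the 19142 genes tested were higher and 10.1% were lower. At an unadjusted p under 0.05, 20 members were higher and 1 was lower, where 15.5% and 15.4% of all genes were. DESeq2 gave an adjusted p to 37 members and called 6 of them higher and 0 lower, with 8.61% and 7.98% of all its genes. By limma-voom 14 of the 72 were higher and 1 was lower, with 10.0% and 9.86% of all genes.

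The number of calls depended on single libraries. With a library left out, 85 to 88 members were tested. Without non-silencing replicate 1, 5 members were called higher, where 5.37% of all genes were: RNVU1-15, RNVU1-13, RNU11, RNU4-2 and RNU5A-8P. Without ILF2 shRNA replicate 2, 9 were called, where 7.82% of all genes were, and 7 of them were among the 15. Without non-silencing replicate 2, 14 were called (5.15% of all genes), and without ILF2 shRNA replicate 1, 18 were called (9.51% of all genes). In each of these cases the log2 fold changes of all 15 stayed above 0. In all 15 both ILF2 shRNA libraries lay above both non-silencing libraries, so leaving out 1 library could hardly give another sign. The kept sign is therefore no added support.

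The median log2 fold change of the tested members was 0.19, against -0.00 over all genes tested. Both ILF2 shRNA libraries lay above both non-silencing libraries in 32 of the 72 members and below them in 7, where 28.5% and 28.0% of all tested genes did so. The calls followed the level: of the 29 members that averaged at least 1 CPM, 15 were higher and the median log2 fold change was 0.37, while none of the 43 below 1 CPM was called and their median was -0.02. Among all 13737 genes averaging at least 1 CPM, 12.8% were higher. These 1753 genes made up most of the 1960 called higher among all 19142 tested. Calls below 1 CPM were thus few among all genes too, and their absence among the 43 members is not particular to them. A CPM value is not divided by gene length, so it compares libraries and not genes. In bulk RNA, more of an RNA per cell and more cells that carry it cannot be told apart.

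**Figure D1:**
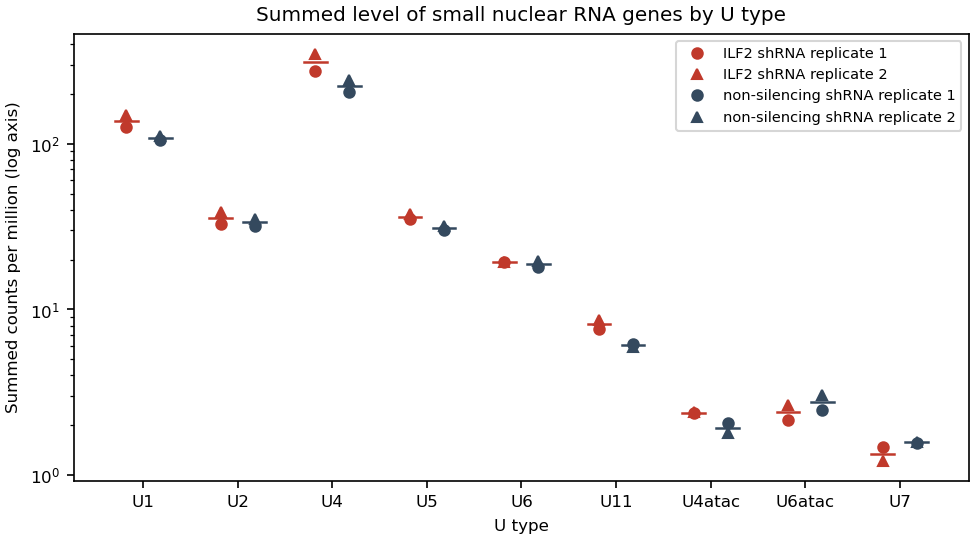
Summed CPM of all members of each U type (log axis), with 1 point per library, ILF2 shRNA on the left and non-silencing shRNA on the right of each pair, and a bar at the group mean (n = 2 each). U4 lies at 275 and 347 CPM with ILF2 shRNA and at 206 and 243 CPM with non-silencing shRNA, while the 2 groups lie close together for U2 and U6.

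Because near-identical copies are hard to tell apart, the counts of each U type were also summed over all its members. Fragments with several places are taken to be missing from these sums as well. The U4 sum averaged 311 ± 50.9 CPM with ILF2 shRNA and 224 ± 26.1 CPM with non-silencing shRNA (SD, n = 2 each), a log2 ratio of 0.47, which was 0.29 without ILF2 shRNA replicate 2. The U1 sum, variants included, averaged 137 ± 15.1 CPM with ILF2 shRNA and 108 ± 3.40 CPM with non-silencing shRNA (SD, n = 2 each), a log2 ratio of 0.34, which was 0.23 without the same library. For these and for U5, U11 and U4atac the libraries of the groups did not overlap, with ILF2 shRNA above. The U5 sum was 35.2 and 37.4 CPM with ILF2 shRNA, against 30.3 and 31.8 CPM with non-silencing shRNA (log2 ratio 0.23). U2 and U6 overlapped, with log2 ratios of 0.08 and 0.03. The U7 sum lay lower with ILF2 shRNA, at 1.47 and 1.23 CPM, against 1.57 and 1.60 CPM with non-silencing shRNA. The functional gene RNU7-1 had 0 fragments, so this sum holds other copies only. The U7 log2 ratio of -0.23 was -0.36 without ILF2 shRNA replicate 1 and -0.10 without ILF2 shRNA replicate 2, and U4atac, at 0.30, was 0.20 without non-silencing replicate 2. These sums are given as a description, without a test. ILF2 shRNA replicate 2 was the highest library for U1, U2, U4, U5, U11 and U4atac.

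U1 recognises the 5′ splice site, and its variant genes gave the most frequent calls of any U type with more than 1 tested gene. Of 7 tested RNVU1 genes, 5 were higher, where 10.2% of all tested genes were. All 7 had both ILF2 shRNA libraries above both non-silencing libraries, with a median log2 fold change of 0.57. Of the 5, RNVU1-13 and RNVU1-14 had every 76-base stretch unique in the genome. RNVU1-15 had 18 unique stretches of 90 and RNVU1-20 had 5 of 88. RNVU1-18 had 0 of 89 and shares its sequence with RNU1-1, so it is a variant by name only. The values of RNVU1-15, RNVU1-20 and RNVU1-18 are therefore uncertain. RNVU1-15 (ENSG00000207205) had 9.45 and 10.4 CPM with ILF2 shRNA, against 6.63 and 6.72 CPM with non-silencing shRNA. The difference was 0.58 on the log2 scale, with an SE of 0.10, and had the smallest adjusted p of any member (edgeR, 1.2e-05). RNVU1-13 (ENSG00000212456) had 5.82 and 6.65 CPM with ILF2 shRNA, against 4.24 and 4.19 CPM with non-silencing shRNA (log2 fold change 0.57, SE 0.12, edgeR adjusted p = 0.00016). In both genes the distance between groups was larger than that between replicates, and these 2 of the 15 calls held under all 12 alternative settings.

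RNVU1-14 had 35.3 and 39.8 CPM with ILF2 shRNA, against 30.1 and 30.3 CPM with non-silencing shRNA (log2 fold change 0.31, edgeR adjusted p = 0.0020). RNVU1-20, whose pairing stretch departs most from that of RNU1-1 among the variants shown, had 2.46 and 2.66 CPM with ILF2 shRNA, against 1.61 and 1.80 CPM with non-silencing shRNA (log2 fold change 0.59, edgeR adjusted p = 0.0044). It lies inside ENSG00000269501 on the same strand, whose own difference was -0.05 on the log2 scale. Both calls were lost without non-silencing replicate 1, that of RNVU1-14 also without ILF2 shRNA replicate 2 and that of RNVU1-20 by DESeq2. RNVU1-6 had 21.40 and 29.75 CPM with ILF2 shRNA, against 17.99 and 21.38 CPM with non-silencing shRNA, and did not pass the test (edgeR adjusted p = 0.20), though it did in 4 of 12 alternative settings. Its ILF2 shRNA libraries differed by more than its lower one did from either non-silencing library. RNVU1-6 keeps the letters of bases 3 to 11 and differs from RNU1-1 at 15 positions elsewhere (90.9% identity).

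The standard U1 genes RNU1-1 and RNU1-2 were not called. RNU1-1 had 13.29 and 15.37 CPM with ILF2 shRNA, against 12.03 and 12.41 CPM with non-silencing shRNA (log2 fold change 0.23, edgeR adjusted p = 0.064). RNU1-2 had 3.50 and 4.15 CPM with ILF2 shRNA, against 3.21 and 3.62 CPM with non-silencing shRNA, and the groups overlapped. RNVU1-18 is named as a variant but has the same sequence as RNU1-1, RNU1-2, RNU1-4 and RNU1-28P, so fragments from inside the RNA cannot be told apart between them and the value of each is uncertain. RNVU1-18 was called higher, with 22.25 and 24.70 CPM with ILF2 shRNA, against 18.91 and 19.04 CPM with non-silencing shRNA (log2 fold change 0.31, edgeR adjusted p = 0.0047). Of 11 tested RNU1 genes, 2 were higher, where 10.2% of all tested genes were. Both had symbols ending in P. RNU1-59P had 7.63 and 8.68 CPM with ILF2 shRNA, against 6.72 and 6.33 CPM with non-silencing shRNA (log2 fold change 0.32, edgeR adjusted p = 0.020). RNU1-60P had 2.93 and 2.77 CPM with ILF2 shRNA, against 1.81 and 2.16 CPM with non-silencing shRNA (log2 fold change 0.52, edgeR adjusted p = 0.0090). It lies inside TEX14 on the same strand, a gene whose own difference was 0.46 on the log2 scale (edgeR adjusted p = 0.14). The calls of RNU1-59P and RNU1-60P were lost by DESeq2. Without non-silencing replicate 1 the calls of RNVU1-18, RNU1-59P and RNU1-60P were all lost, and those of RNVU1-18 and RNU1-59P were lost too when replicate 2 of either group was left out.

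**Figure D2:**
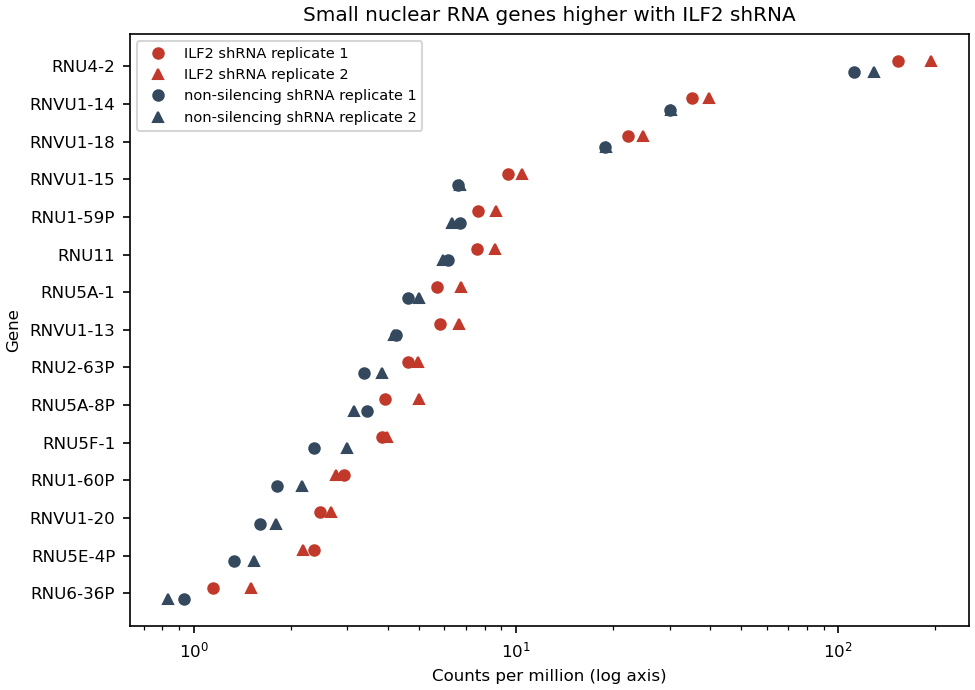
CPM (log axis) in each library for the 15 small nuclear RNA genes higher with ILF2 shRNA at an edgeR adjusted p under 0.05; circles and triangles are replicates 1 and 2. In all 15 genes both ILF2 shRNA libraries lie to the right of both non-silencing libraries, from RNU4-2 at the top to RNU6-36P, with 1.145 and 1.502 CPM with ILF2 shRNA and 0.931 and 0.833 CPM with non-silencing shRNA, at the bottom.

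U2 pairs with the branch point of the intron. Of 6 tested U2 genes 1 was higher, where 10.2% of all tested genes were. All 70 U2 members in the files carry symbols ending in P, among them RNU2-2P, which starts at the same base as WDR74, a gene on the same strand, and lies within it (chr11:62609091-62609281, minus strand). RNU2-2P had 0 fragments in all 4 libraries, which allows at most 3 fragments, or 0.0411 to 0.0473 CPM, for counting error alone. Fragments that overlap several genes are taken to have been left out of the counts, so this 0 does not show that the RNA is absent. RNU2-59P, the U2 gene with the most fragments, had 17.71 and 20.89 CPM with ILF2 shRNA, against 17.49 and 20.01 CPM with non-silencing shRNA, and the groups overlapped (log2 fold change 0.04, SE 0.09, edgeR adjusted p = 0.79). RNU2-59P differs from RNU2-2P at 14 positions (92.7% identity) and keeps GTAGTA, the stretch that pairs with the branch point. RNU2-63P, which lacks those letters, was the 1 gene called, with 4.63 and 4.96 CPM with ILF2 shRNA, against 3.37 and 3.84 CPM with non-silencing shRNA (log2 fold change 0.41, edgeR adjusted p = 0.012). The call was lost by DESeq2, and on leaving out ILF2 shRNA replicate 2 or else non-silencing replicate 1.

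U4 keeps U6 inactive until the spliceosome is assembled. RNU4-2 (ENSG00000202538) had 153 and 193 CPM with ILF2 shRNA, against 112 and 129 CPM with non-silencing shRNA. This is a difference of 0.53 on the log2 scale (SE 0.10, edgeR adjusted p = 0.0021). RNU4-1 (ENSG00000200795) had 121 and 153 CPM with ILF2 shRNA, against 93.2 and 112 CPM with non-silencing shRNA (log2 fold change 0.41, SE 0.12, edgeR adjusted p = 0.0504, which misses the threshold). In both genes the groups did not overlap, but replicate 2 was above replicate 1 in each group and the spread within groups was wide. RNU4-2 was past the threshold in 11 of 12 alternative settings, all but DESeq2 (adjusted p = 0.055). RNU4-1 was past it in 8 of 12, and by DESeq2 its adjusted p was 0.21. Without ILF2 shRNA replicate 2 the log2 fold changes of RNU4-2 and RNU4-1 were 0.35 and 0.24. Every 76-base stretch of both genes occurs once in the genome, so reads of the length used here can be placed on one or the other. The remaining tested U4 copies, RNU4-62P inside HCLS1 and RNU4-32P inside MMAB, averaged under 1 CPM and were not called.

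U5 aligns the exon ends and serves both spliceosomes. Of 7 tested U5 genes, all averaging at least 1 CPM, 4 were higher, where 12.8% of all genes at that level were. RNU5F-1 had 3.84 and 3.99 CPM with ILF2 shRNA, against 2.36 and 2.98 CPM with non-silencing shRNA (log2 fold change 0.55, edgeR adjusted p = 0.0018). RNU5E-4P had 2.37 and 2.18 CPM with ILF2 shRNA, against 1.34 and 1.54 CPM with non-silencing shRNA (log2 fold change 0.66, edgeR adjusted p = 0.0024), the largest log2 fold change among the genes called. RNU5A-1 had 5.680 and 6.746 CPM with ILF2 shRNA, against 4.616 and 4.996 CPM with non-silencing shRNA (log2 fold change 0.37, edgeR adjusted p = 0.014). The fourth, RNU5A-8P, had 3.92 and 4.998 CPM with ILF2 shRNA, against 3.44 and 3.14 CPM with non-silencing shRNA (log2 fold change 0.44, edgeR adjusted p = 0.0097). In each of the 4 the groups did not overlap, but single libraries decided the calls. RNU5A-8P was 0.25 without ILF2 shRNA replicate 2 (edgeR adjusted p = 0.32) and was also lost without non-silencing replicate 2 and by DESeq2. RNU5A-1 was 0.24 without ILF2 shRNA replicate 2 (edgeR adjusted p = 0.27) and was also lost without non-silencing replicate 1 and by DESeq2. RNU5F-1 and RNU5E-4P were lost without non-silencing replicate 1, and RNU5E-4P by DESeq2 as well. RNU5B-1, which has the most U5 fragments, had 10.8 and 12.2 CPM with ILF2 shRNA, against 11.9 and 12.2 CPM with non-silencing shRNA (log2 fold change -0.07, SE 0.09, edgeR adjusted p = 0.68). Whether RNU5B-1 differs in response from the other U5 genes was not tested. RNU5E-1 and RNU5D-1 had log2 fold changes of 0.16 and 0.39 and were not called.

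**Figure D3:**
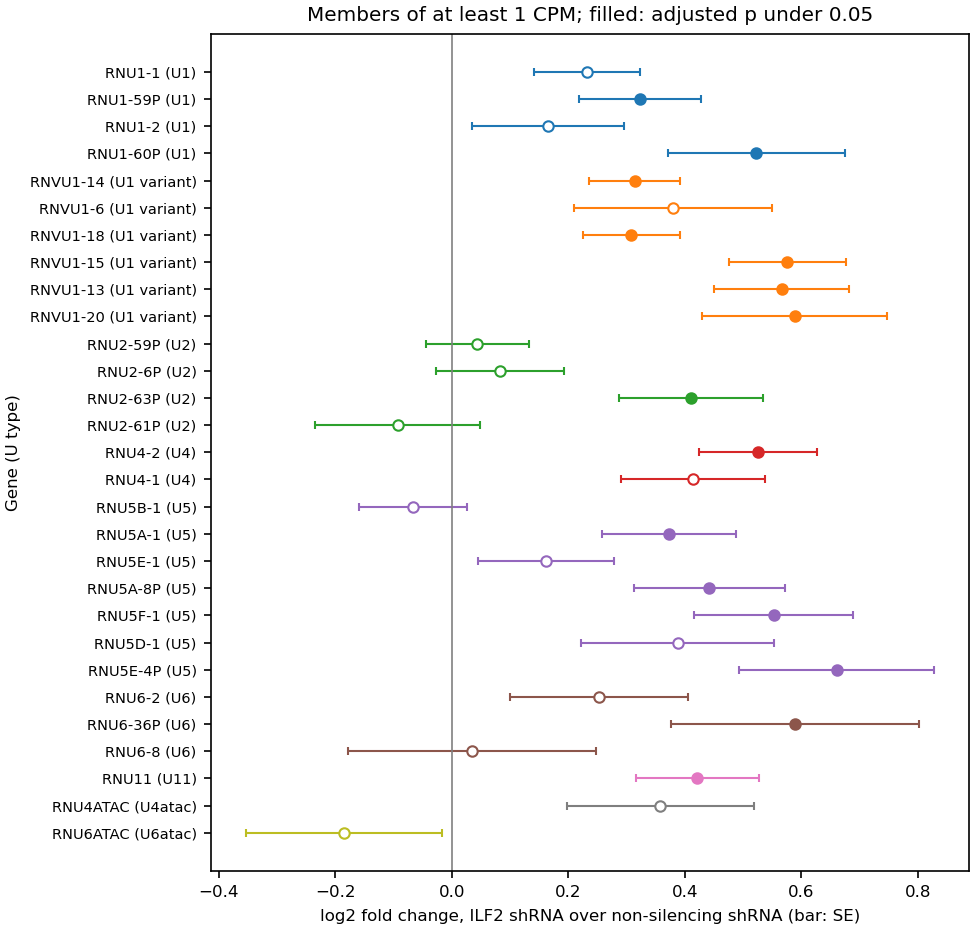
Log2 fold change of ILF2 shRNA over non-silencing shRNA for the 29 members that averaged at least 1 CPM, with bars of 1 SE from the edgeR fit, grouped by U type; filled points passed an adjusted p of 0.05. All 6 U1 variants lie between 0.31 and 0.59, while RNU5B-1, RNU2-61P and RNU6ATAC lie below 0.

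U6 is the catalytic RNA of the spliceosome, and it is by far the largest family of copies, with 1322 of the 1900 members. Only 303 of these had a fragment and 31 were tested. Of these 31, 1 was higher and 0 were lower, where 10.2% and 10.1% of all tested genes were. The median log2 fold change of the 31 was -0.08. RNU6-2 had 2.35 and 2.79 CPM with ILF2 shRNA, against 2.21 and 2.11 CPM with non-silencing shRNA (log2 fold change 0.25, edgeR adjusted p = 0.26). RNU6-1, RNU6-2, RNU6-9 and 4 tested copies ending in P are identical over the whole gene. Each of their 76-base stretches is present at 9 to 14 places. Fragments with several places are taken to have been left out of the counts, so the value of each copy is uncertain. RNU6-36P, the 1 U6 gene called, had 1.145 and 1.502 CPM with ILF2 shRNA, against 0.931 and 0.833 CPM with non-silencing shRNA (log2 fold change 0.59, edgeR adjusted p = 0.039), and it was past the threshold in 6 of 12 alternative settings, with a log2 fold change of 0.38 without ILF2 shRNA replicate 2. RNU6-821P was the member with the lowest log2 fold change, -1.53 with edgeR's adjusted p = 0.058, at 0.0628 and 0.0722 CPM with ILF2 shRNA, against 0.162 and 0.236 CPM with non-silencing shRNA. It lies inside the pseudogene ANKRD18DP on the same strand, which was lower too, at -1.13 on the log2 scale (edgeR adjusted p = 1.9e-07).

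In the minor spliceosome, U11 recognises the 5′ splice site. RNU11 (ENSG00000270103) had 7.58 and 8.58 CPM with ILF2 shRNA, against 6.16 and 5.93 CPM with non-silencing shRNA. This is a difference of 0.42 on the log2 scale (SE 0.11, edgeR adjusted p = 0.0021), and the distance between groups exceeded that between replicates. Without ILF2 shRNA replicate 2 its adjusted p was 0.065. RNU4ATAC, the partner of U6atac, had 2.23 and 2.31 CPM with ILF2 shRNA, against 1.90 and 1.64 CPM with non-silencing shRNA (log2 fold change 0.36, edgeR adjusted p = 0.11). RNU6ATAC had 1.60 and 2.17 CPM with ILF2 shRNA, against 1.86 and 2.44 CPM with non-silencing shRNA, and the groups overlapped (log2 fold change -0.19, edgeR adjusted p = 0.50). The 1 U12 member, RNU12-2P, had no fragments. ENSG00000270022, a gene of 664 bases that is not a member and covers the U12 locus at its start (chr22:43011250-43011913, plus strand), had 13.1 and 14.8 CPM with ILF2 shRNA, against 9.99 and 9.56 CPM with non-silencing shRNA (log2 fold change 0.51, edgeR adjusted p = 2.4e-05), and its counts do not separate the short RNA from the rest of the gene.

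U7, which guides the cut at the 3′ end of histone mRNAs, was hardly counted. The functional gene RNU7-1 had 0 fragments in every library; it lies inside C12orf57 on the same strand, so the same limit applies as for RNU2-2P. Of 179 U7 members 40 had a fragment and 2 were tested, RNU7-57P and RNU7-40P, with log2 fold changes of -0.31 and 0.19 and neither called. RNU7-57P, which held 32.9% of the U7 sum, lies inside ATP8B2 on the same strand. ATP8B2 was lower too, at -0.31 on the log2 scale (edgeR adjusted p = 0.00028). RNU7-40P lies inside STAT2 on the same strand, whose own difference was 0.08 (edgeR adjusted p = 0.45). Both tested genes, of 60 and 64 bases, are shorter than the 76-base reads. The symbols RNU105B, RNU105C and RNU3P3 also begin RNU but name small nucleolar RNAs, and they held 4 fragments in all.

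**Figure D4:**
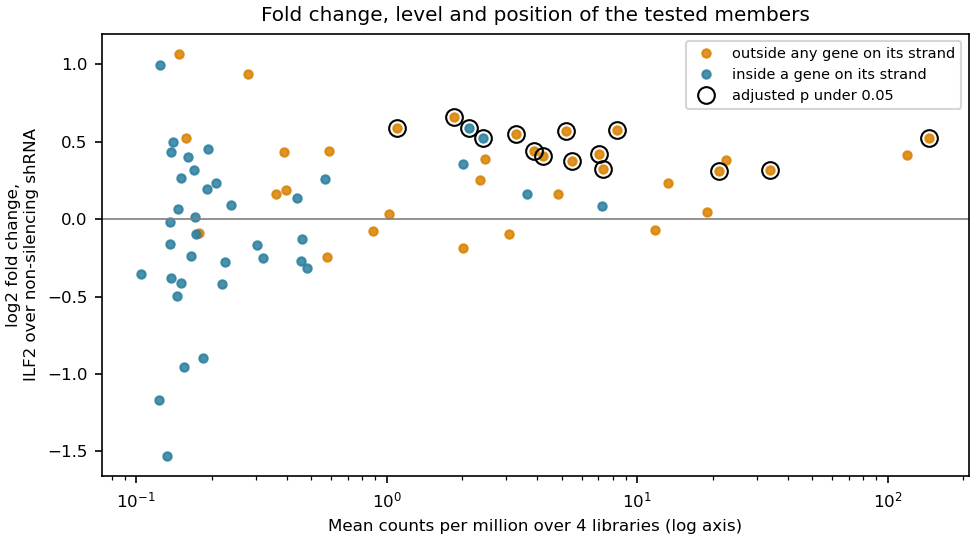
Log2 fold change of ILF2 shRNA over non-silencing shRNA against the mean CPM over the 4 libraries (log axis) for the 72 tested members, coloured by whether the gene lies inside another gene on its own strand; rings mark an adjusted p under 0.05. The 15 ringed genes all average above 1 CPM and 13 of them lie outside any gene on their strand, while the members below 1 CPM spread to both sides of 0.

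Total RNA holds reads from introns, and a copy that lies inside an expressed gene on the same strand can collect them. Of the 72 tested members, 38 lay inside another gene on their strand, with 2 higher and a median log2 fold change of -0.00. The other 34 lay outside, with 13 higher and a median of 0.38. Of all tested genes 10.2% were higher. Position moved with level: among members of at least 1 CPM, 5 lay inside a gene (2 higher, median 0.36) and 24 outside (13 higher, median 0.38). Of all genes averaging at least 1 CPM, 12.8% were higher. Among the U6 copies, 22 lay inside a gene, with 0 called, and 9 outside, with 1 higher. The part of host reads in the values of the inside members was not tested.

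By copy number, 13 tested members had no 76-base stretch found at a single place in the genome. Of these 1, RNVU1-18, was called higher, where 10.2% of all tested genes were. Another 52 had every stretch unique, and 10 of these were higher, so most calls stood on genes that reads of this length can tell apart. The 5 with some unique stretches gave the remaining 4 calls, RNVU1-15, RNVU1-20, RNU1-59P and RNU6-36P, whose values are uncertain for the same reason. On chromosome 1 lay 22 of the 72 tested members and 10 of the 15 calls, where 9.94% of all 2003 tested genes on that chromosome were higher.

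The distal promoter element of small nuclear RNA genes often holds an octamer, ATTTGCAT, bound by Oct-1. Within 250 bases before the start, on either strand, it was found in 15 of the 72 tested members (20.8%), in 7 of the 15 higher members and in 8 of the 57 not called; the members and this motif were chosen with results known. It was found before 1.97% of all 57905 genes placed on the genome. It stood before 6 of the 7 tested U5 genes, RNU5B-1 among them, and before RNU11 and RNU4-2, but before none of the U1 genes or U1 variants. The 3′ box AAANNNAGA, searched within 30 bases after the gene on the sense strand, was found in 13 of the 72 (18.1%), in 3 of the 15 higher members and 10 of the 57 not called, and after 3.16% of all genes. TATA between 36 and 19 bases before the start, on the sense strand, stood before 0 of the 15 and 4 of the 57, and before 4.46% of all genes. A match is a description of letters only. As examples the 250 bases before RNU11 (chr1:28974862-28975111, plus strand) and RNU5A-1 (chr15:65588139-65588388, plus strand) are shown with the octamer in capitals.
RNU11 upstream: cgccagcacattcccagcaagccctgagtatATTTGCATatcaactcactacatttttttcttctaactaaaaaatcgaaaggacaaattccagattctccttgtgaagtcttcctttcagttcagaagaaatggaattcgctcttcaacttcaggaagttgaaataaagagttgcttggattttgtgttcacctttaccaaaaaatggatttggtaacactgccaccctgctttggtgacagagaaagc
RNU5A-1 upstream: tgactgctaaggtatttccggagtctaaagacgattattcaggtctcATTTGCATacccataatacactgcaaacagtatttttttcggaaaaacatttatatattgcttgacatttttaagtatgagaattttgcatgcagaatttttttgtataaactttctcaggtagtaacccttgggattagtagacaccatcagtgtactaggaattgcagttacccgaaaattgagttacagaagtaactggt

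The protein genes that build and use these RNAs were taken from several lists together. Over 147 genes of snRNP proteins and of snRNA transcription, processing, assembly and modification, 9 were higher (6.12%) and 5 were lower, where 10.2% and 10.1% of all tested genes were, with a median log2 fold change of -0.03. Without either of the non-silencing libraries 3 were higher, and without ILF2 shRNA replicate 1 10 were lower. None of the 16 proteins of the U4/U6 and U5 tri-snRNP, the 12 of the minor U11/U12 snRNP, the 8 Sm or the 8 LSM proteins was called. PRPF8, the core U5 protein, had a log2 fold change of -0.04 (SE 0.07). Among U1 proteins LUC7L2, a splicing factor bound to U1, fell by 0.23 on the log2 scale (edgeR adjusted p = 0.031), and among U2 proteins SF3B5 was higher by 0.24 (edgeR adjusted p = 0.0094). Both calls were lost without ILF2 shRNA replicate 2 and without either non-silencing library, and SF3B5 was 0.15 without ILF2 shRNA replicate 2.

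The list of snRNA promoter transcription held 4 higher genes and 1 lower gene of 17, where 10.2% and 10.1% of all tested genes were. Without non-silencing replicate 1 it held 2 higher genes. ELL2, an elongation factor that is abundant in plasma cells, had 333 and 315 CPM with ILF2 shRNA, against 206 and 211 CPM with non-silencing shRNA (log2 fold change 0.64, edgeR adjusted p = 3.5e-11). Its partner EAF2 was higher by 0.49. ICE2, a subunit of the little elongation complex, which acts on snRNA genes, was higher by 0.27, a call lost without non-silencing replicate 1. POU2F1, the octamer-binding factor Oct-1, had 56.5 and 51.9 CPM with ILF2 shRNA, against 68.9 and 66.3 CPM with non-silencing shRNA (log2 fold change -0.32, edgeR adjusted p = 0.00060). INTS12 was the 1 gene called of 15 of Integrator, which cuts the 3′ end of snRNAs, with a log2 fold change of 0.22, and it was past the threshold in 6 of 12 alternative settings. XPO1, the nuclear export receptor that carries snRNAs to the cytoplasm, had 313 and 289 CPM with ILF2 shRNA, against 375 and 400.4 CPM with non-silencing shRNA (log2 fold change -0.36, edgeR adjusted p = 2.8e-05).

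Among the remaining lists, LSM10, a ring protein of the U7 snRNP, was higher by 0.28, and CASP8AP2, needed for histone mRNA processing, fell by 0.31 on the log2 scale. CDK9, the kinase held by 7SK RNA, was higher by 0.22, while of the modifying enzymes NOP10 was higher by 0.22 and PUS7 lower, at a log2 fold change of -0.26. These 5 calls rested on single libraries: all were lost without non-silencing replicate 2, and those of LSM10, CASP8AP2, CDK9 and NOP10 without ILF2 shRNA replicate 2 as well. CDK9 and NOP10 were also lost without non-silencing replicate 1. LSM10 was 0.17 without non-silencing replicate 2, CASP8AP2 was -0.18 without ILF2 shRNA replicate 2, and CDK9 ran down to 0.15 with a library left out. Among other short RNAs of RNA polymerase III, 3 of 10 tested were higher and 0 lower, where 10.2% and 10.1% of all tested genes were. The median log2 fold change of these 10 was 0.36. Leaving out ILF2 shRNA replicate 1 gave 6 higher, and leaving out non-silencing replicate 2 gave 1. RN7SK had 22151 and 26221 CPM with ILF2 shRNA, against 19463 and 18701 CPM with non-silencing shRNA (log2 fold change 0.34, edgeR adjusted p = 0.00037, up to 0.13 without non-silencing replicate 2; log2 fold change 0.22 without ILF2 shRNA replicate 2), and RN7SL3 was higher by 0.51. Of 16 tested scaRNAs, the guide RNAs for snRNA modification, 3 were higher and 2 lower, with a median of 0.04, where 10.2% and 10.1% of all tested genes were called. Without non-silencing replicate 1, 0 were higher and 1 was lower.

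Several measures of the libraries moved with the groups. Small nuclear RNA genes took 0.0505% and 0.0587% of fragments with ILF2 shRNA, against 0.0410% and 0.0457% with non-silencing shRNA, and mitochondrial genes took 0.516% and 0.463% with ILF2 shRNA, against 0.351% and 0.307% with non-silencing shRNA. All 8 plasma cell markers were present, at summed levels of 7132 and 7341 CPM with ILF2 shRNA, against 7018 and 6982 CPM with non-silencing shRNA, with SDC1 lower and MZB1 higher. Of 8 markers of other cell types 1, EPCAM, was at 0 in all libraries, and their sum was 16.9 and 17.8 CPM with ILF2 shRNA, against 9.26 and 8.45 CPM with non-silencing shRNA. CD3E, a T cell marker, made up most of that sum and was higher by 1.07 on the log2 scale. The part of these shifts in the small nuclear RNA values was not tested.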

How the data were processed

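The data are raw counts of fragments per gene, deposited by the authors for 4 total RNA libraries depleted of ribosomal RNA. Per the file headers, featureCounts (Subread 1.4.6-p2) counted paired fragments with strand setting 2 over exons of Ensembl release 75 (GRCh37). The headers record no option to keep fragments that have several places or genes. Such fragments are taken to be left out, which lowers counts of near-identical copies and of genes inside others. STAR 2.3.0 and SAMtools 0.1.19 stand in the submitters' processing notes, and Tophat2 in the design text. Silica columns, used per the labels, retain short RNAs poorly, so levels are not those of the cell.

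Symbols came from GENCODE's GRCh37 annotation by gene ID (55664 genes), and RNU11 was placed by position on RefSeq's gene (reciprocal overlap 0.970). Members and lists were chosen with earlier results of these data known. The rule for names took ILF2, members called, the 3 members with most fragments per U type, and up to 4 called genes per list or the 2 most abundant. Members named beyond it were chosen after their values were seen, and some under it stand only in counts.

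All genes were fitted in edgeR 4.0.16 (R 4.3.3) with TMM factors (0.970 to 1.02), filterByExpr (minimum count 10), group as the only term and quasi-likelihood tests, two-sided, adjusted by Benjamini-Hochberg over 19142 genes. CPM used TMM-adjusted library sizes. Residual degrees of freedom were 2, and counting error weighs most below a few CPM. On simulated counts of this comparison, 18780 genes were tested and 86% of log2 changes of 0.5 and 100% of those of 1 were recovered. Each rate rests on 50 changed genes and is not specific to small nuclear RNA genes. Whether it holds for members under 1 CPM, 43 of the 72 tested, or for members with a wide replicate spread was not tested. Alternatives were DESeq2 1.42.0, limma-voom (limma 3.58.1), other scalings and filters, a replicate block, and each library left out. Every 76-base stretch of a tested member was matched exactly against the GRCh37 genome. Sequences of the U5 and U6 RNAs are not reported here.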

Additional observations from a re-analysis of the deposited data

How the results depend on the processing

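The number of small nuclear RNA genes higher with ILF2 shRNA was 15, and it lay between 5 and 18 when each library was left out in turn, with 0 lower in each case. DESeq2 called 6 of the 37 members to which it gave an adjusted p, all among the 15, and limma-voom 14 higher and 1 lower (RNU6-821P, adjusted p = 0.050). The median log2 fold change of 0.19 was 0.038 by DESeq2 and 0.031 without a filter, where 482 members entered, and 0.37 with a filter of 1 CPM in 2 libraries, where 29 did. With a library left out it ran from 0.17 to 0.25. No named gene past the threshold changed sign under the alternatives run. For the 15 members called, the groups did not overlap, so the fits with a library left out could hardly give another sign. Genes that were not called did cross 0, among them RNU2-59P (-0.08 to 0.16), RNU5B-1 (-0.16 to 0.02), RNU6ATAC (-0.43 to 0.02) and PRPF8 (-0.08 to 0.01), as did the summed log2 ratios of U2 (-0.04 to 0.20) and U6 (-0.03 to 0.09).

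Over all tested genes, same-numbered libraries had a correlation of -0.02 in their deviations from the group means, so no pairing by replicate number showed across genes. With 2 libraries per group this cannot settle whether some genes are paired. Replicate 2 was above replicate 1 in both groups for RNU4-2 and RNU4-1 but not for RNU5E-4P. With a replicate block, 15 small nuclear RNA genes were higher, 13 of them shared, where 6.74% of all genes were. The block put RNU4-1 (adjusted p = 0.00078) and RNVU1-6 (adjusted p = 0.011) past the threshold, and RNU1-59P and RNU6-36P were lost under it, as were ICE2, INTS12, LSM10, LUC7L2, SF3B5, CDK9, NOP10 and PUS7. The snRNP and biogenesis lists had 2 higher and 3 lower genes with the block, against 9 and 5 without it, and 3 to 10 of each when a library was left out.

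The most abundant member alone gave a log2 ratio of -0.068 for U5 (RNU5B-1), where the sum gave 0.23, and of 0.25 for U6, where the sum gave 0.03. Symbols not ending in P gave 0.13 for U6. These sums hold fewer genes, and no other cause was tested. Of the 43 tested members under 1 CPM none was called, with 21 log2 fold changes above 0 and 22 below; whether depth or the lack of a shift accounts for this was not tested.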
